A study of Solanum lycopersicum with 12 samples.

Results

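Proteinase inhibitors I and II, threonine deaminase 2, leucine aminopeptidase A and arginase 2 are defence proteins of tomato leaf, and their transcripts are known to accumulate after wounding or insect attack. Wounding releases the peptide systemin and leads to the synthesis of jasmonate, the lipid-derived hormone that relieves repressor proteins from transcription factors and so switches these genes on. The inhibitors block digestive proteases of the insect gut, while threonine deaminase 2 and arginase 2 break down amino acids that the insect needs. The genes were taken by locus identifier, 4 proteinase inhibitor II loci of chromosome 3, 2 proteinase inhibitor I loci of chromosome 9 and 1 locus for each of the enzymes. All 9 loci were found among the 33976 genes of the deposited table. The names of the 9 genes are those of the list of loci, since the reference table at hand pairs no locus identifier with a name.

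Leaf RNA was sequenced in 12 libraries, 4 from wild type plants of the cultivar Red Setter and 4 from each of the edited lines *slmyb60Cr1* and *slmyb60Cr2*. Both lines are homozygous, free of Cas9 and in the Red Setter background, each stems from its own deletion in *SlMYB60*, a MYB transcription factor gene, and each replicate pooled leaf discs of 4 plants. The labels give a water stress to all 12 libraries, with irrigation suspended for 14 days, whereas the methods of the study mention no water deficit for the plants used for RNA, so a shared water deficit is not certain. No wounded or jasmonate-treated leaves were among the libraries. Values are TPM, a relative transcript level. They are corrected for the length of each transcript and add up to the same total in every library. TPM carry no read depth, and counting error was not computed here.

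The labels could be checked with the edited gene, whose mean was 16.5 ± 4.62 TPM in wild type leaves, 2.19 ± 0.501 for *slmyb60Cr1* and 2.70 ± 0.405 for *slmyb60Cr2* (± SD, n = 4 each), with every edited library below every wild type library. The 8 leaf photosynthesis genes listed as markers were all present, and their summed level lay between 7696 and 28790 TPM. The summed level of 3 fruit and flower markers lay between 5.71 and 12.9 TPM.

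Transcripts of the 6 proteinase inhibitor loci were scarce in the leaves of every genotype. By mean level, these loci ranked between percentiles 9.32 and 16.2 of the detected genes. Leucine aminopeptidase A was at percentile 23.3, arginase 2 at 35.7 and threonine deaminase 2 at 44.9. Threonine deaminase 2 was thus not far below the median detected gene. No gene of the 9 reached a mean of 10 TPM over the 12 libraries, and 5 of the 9 stayed below 1 TPM in every library. Summed over all 9 genes, wild type leaves held 10.3 ± 6.34 TPM, *slmyb60Cr1* 7.57 ± 3.61 and *slmyb60Cr2* 13.0 ± 5.45 (± SD over 4 libraries), and most of this sum was threonine deaminase 2. The mean levels followed the order threonine deaminase 2, arginase 2, leucine aminopeptidase A, and then the 6 proteinase inhibitor loci, of which none had a mean above 0.179 TPM. The 3 enzymes were above the limit set for testing, at least 0.5 TPM in at least 4 libraries, and the 6 inhibitor loci were below it. In bulk leaf samples, a low level in many cells and a higher level in few cells cannot be told apart.

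**Figure D1:**
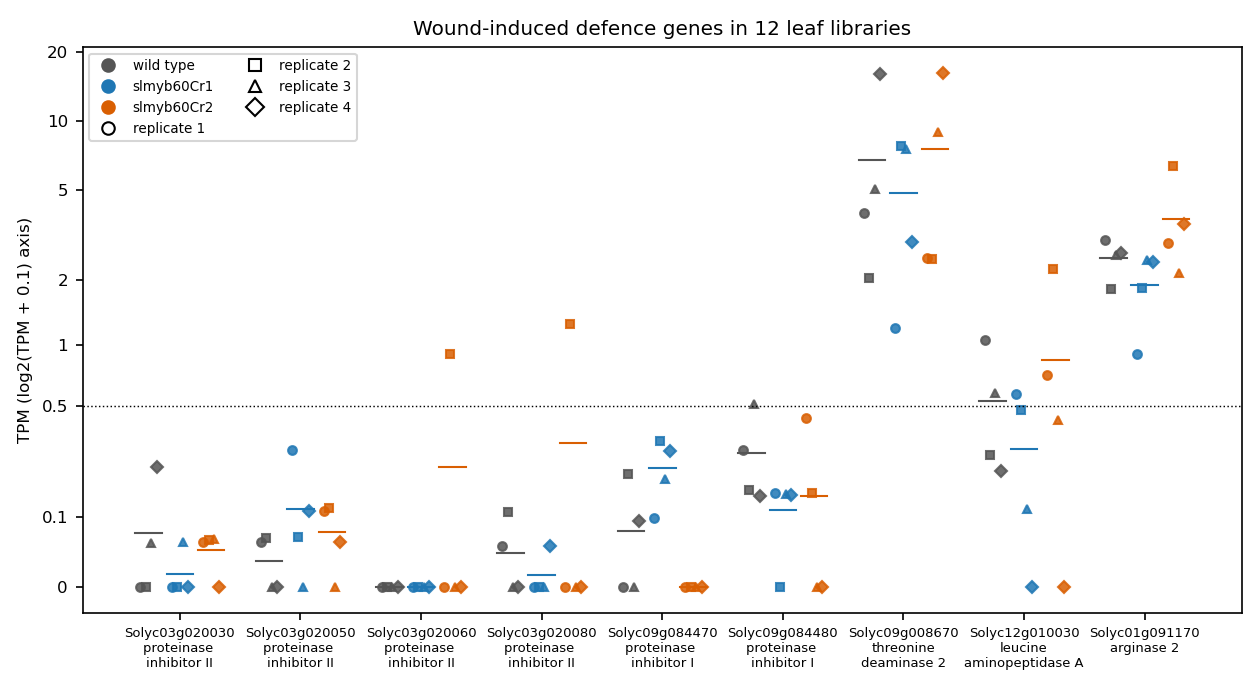
TPM of each of the 9 genes in each library, on a log2(TPM + 0.1) axis, with colour for the genotype, marker shape for the replicate number, short lines for the genotype means and a dotted line at the limit of 0.5 TPM. The 6 proteinase inhibitor loci lie at 0.513 TPM (Solyc09g084480 in wild type replicate 3) or lower, apart from *slmyb60Cr2* replicate 2. That library is at 0.912 TPM for Solyc03g020060 and at 1.26 TPM for Solyc03g020080.

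Proteinase inhibitor II is a small protein that blocks trypsin and chymotrypsin, and its transcript is the classical marker of a wounded tomato leaf. Solyc03g020060 was listed at 0 in 11 of the 12 libraries and at 0.912 TPM in *slmyb60Cr2* replicate 2. Its neighbour Solyc03g020080 was listed at 0 in 8 libraries, at 0.0495 and 0.110 TPM in wild type replicates 1 and 2, at 0.0498 TPM in *slmyb60Cr1* replicate 4 and at 1.26 TPM in *slmyb60Cr2* replicate 2. For both loci this single library thus held all of the signal of *slmyb60Cr2*, and the other 3 libraries of that line were listed at 0.

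Solyc03g020030 was above 0 in 6 libraries, at 0.229 TPM in wild type replicate 4 and between 0.0554 and 0.0608 TPM in the other 5. Solyc03g020050 was above 0 in 8 libraries, between 0.0559 and 0.288 TPM, with the highest value in *slmyb60Cr1* replicate 1. These loci did not share the high value of *slmyb60Cr2* replicate 2, which was at 0.0593 and 0.119 TPM for them. The groups overlapped for all 4 proteinase inhibitor II loci.

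Salmon, the program behind the table, can divide reads among similar neighbouring genes, and the sum over the 4 loci depends less on that division. Solyc03g020040 and Solyc03g020070, with identifiers among the 4, are not in the sum, and their names could not be checked. The first had means of 0.323 TPM in wild type leaves, 0.232 in *slmyb60Cr1* and 0.348 in *slmyb60Cr2*. The second was above 0 only in *slmyb60Cr2* replicate 2, at 0.214 TPM. The summed level of proteinase inhibitor II was 0.105, 0.173, 0.0554 and 0.229 TPM in wild type replicates 1 to 4. It was 0.288, 0.0636, 0.0570 and 0.163 TPM in *slmyb60Cr1*. In *slmyb60Cr2* it was 0.169, 2.35, 0.0608 and 0.0569 TPM, so that replicate 2 lay above all other libraries and the remaining 3 lay within the wild type range. The mean of *slmyb60Cr2*, 0.660 TPM, fell to 0.0956 TPM without replicate 2.

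Proteinase inhibitor I acts mainly on chymotrypsin-like and subtilisin-like proteases and is wound-induced together with inhibitor II. Solyc09g084470 was at 0, 0.207, 0 and 0.0924 TPM in wild type replicates 1 to 4, at 0.0973, 0.324, 0.193 and 0.285 TPM in *slmyb60Cr1*, and was listed at 0 in all 4 libraries of *slmyb60Cr2*. The libraries of *slmyb60Cr1* and *slmyb60Cr2* did not overlap for this locus, whereas wild type libraries overlapped with both lines. The exact permutation test gave a two-sided p of 0.0286 for *slmyb60Cr2* against *slmyb60Cr1* (4 libraries each), the smallest p that this design allows. Of the 27 comparisons made for the 9 genes in this way, 1 had a p below 0.05, and the next smallest exact p was 0.0857. Among 26889 genes detected in at least 1 library, 7.79% had no overlap between the edited lines, so 1 gene of 9 is near this background. In a limma fit of these 26889 genes the locus was not called (limma adjusted p = 0.0890), and no fold is given because one group was listed at 0.

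The other proteinase inhibitor I locus, Solyc09g084480, was at 0.288, 0.162, 0.513 and 0.146 TPM in wild type replicates 1 to 4, at 0.155, 0, 0.152 and 0.149 TPM in *slmyb60Cr1* and at 0.432, 0.155, 0 and 0 TPM in *slmyb60Cr2*. The 3 genotypes overlapped. Summed over both loci, wild type leaves held 0.352 ± 0.120 TPM, *slmyb60Cr1* 0.339 ± 0.0749 and *slmyb60Cr2* 0.147 ± 0.204 (± SD over 4 libraries), so the higher mean of *slmyb60Cr1* than of the wild type at Solyc09g084470 was not seen in the sum. The mean of *slmyb60Cr2* was 0.0515 TPM without its replicate 1. In *slmyb60Cr2* replicate 2 the inhibitor I sum was 0.155 TPM, below every wild type library.

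None of the 6 inhibitor loci was called in any comparison in the fit that included genes below the limit. Across these 18 comparisons, limma adjusted p values ran from 0.0890 to 1, and 2 had an unadjusted p below 0.05, both for Solyc09g084470.

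Threonine deaminase 2 (Solyc09g008670) is a plastid enzyme that degrades threonine, and its processed form is known to stay active in the insect gut. It was the most abundant of the 9 transcripts in the mean and one of the most variable. It was at 4.00, 2.04, 5.05 and 16.1 TPM in wild type replicates 1 to 4. The values in *slmyb60Cr1* were 1.20, 7.81, 7.58 and 2.96 TPM, and those in *slmyb60Cr2* were 2.50, 2.48, 8.99 and 16.3 TPM. The highest libraries were replicate 4 of the wild type and of *slmyb60Cr2*, and the groups overlapped over most of their range. The log2 fold change was −0.40 in *slmyb60Cr1* (95% interval −2.16 to 1.37, limma adjusted p = 0.856) and 0.11 in *slmyb60Cr2* (−1.65 to 1.88, limma adjusted p = 0.957).

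Arginase 2 (Solyc01g091170) breaks down arginine and is the jasmonate-responsive arginase of tomato. It was at 3.02, 1.82, 2.60 and 2.64 TPM in wild type replicates 1 to 4, at 0.910, 1.84, 2.46 and 2.41 TPM in *slmyb60Cr1* and at 2.92, 6.42, 2.14 and 3.55 TPM in *slmyb60Cr2*. The lowest library was *slmyb60Cr1* replicate 1 and the highest *slmyb60Cr2* replicate 2, and all groups overlapped. The log2 fold change against the wild type was −0.45 in *slmyb60Cr1* (95% interval −1.24 to 0.33, limma adjusted p = 0.572) and 0.47 in *slmyb60Cr2* (−0.32 to 1.25, limma adjusted p = 0.485). The first of these was −0.15 without *slmyb60Cr1* replicate 1 (limma adjusted p = 0.851).

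Among the testable genes, the edited lines had the lowest p for arginase 2. Its level was 3.76 ± 1.87 TPM in *slmyb60Cr2* and 1.90 ± 0.719 in *slmyb60Cr1* (mean ± SD, 4 libraries each), a log2 difference of 0.92 with a 95% interval of 0.13 to 1.71. The difference had an unadjusted p of 0.0258 in limma and did not pass after adjustment over all genes tested (limma adjusted p = 0.271). It was 0.63 without *slmyb60Cr2* replicate 2 (limma adjusted p = 0.491) and 0.62 without *slmyb60Cr1* replicate 1 (limma adjusted p = 0.409). Without *slmyb60Cr2* replicate 2, the log2 fold change of *slmyb60Cr2* against the wild type was 0.18 (limma adjusted p = 0.833).

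Leucine aminopeptidase A (Solyc12g010030) removes amino acids from the ends of peptides and is known as a late wound-response protein of nightshades. The name of this locus could not be checked, and Solyc12g010020 beside it had a higher level, with a mean of 2.85 TPM in wild type leaves. Solyc12g010030 was at 1.05, 0.271, 0.584 and 0.217 TPM in wild type replicates 1 to 4, at 0.575, 0.480, 0.117 and 0 TPM in *slmyb60Cr1* and at 0.720, 2.24, 0.421 and 0 TPM in *slmyb60Cr2*. The groups overlapped, replicate 4 of both edited lines was listed at 0, and *slmyb60Cr2* replicate 2 was the highest library. Log2 fold changes were −0.86 in *slmyb60Cr1* (95% interval −2.88 to 1.16, limma adjusted p = 0.695) and 0.028 in *slmyb60Cr2* (−1.99 to 2.05, limma adjusted p = 0.992). The first of these was −0.33 without *slmyb60Cr1* replicate 4 (limma adjusted p = 0.921). In the second the sign was negative after scaling of the libraries with TMM factors or medians, and the value was −0.66 without *slmyb60Cr2* replicate 2 (limma adjusted p = 0.755) and 0.86 without *slmyb60Cr2* replicate 4 (limma adjusted p = 0.607).

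**Figure D2:**
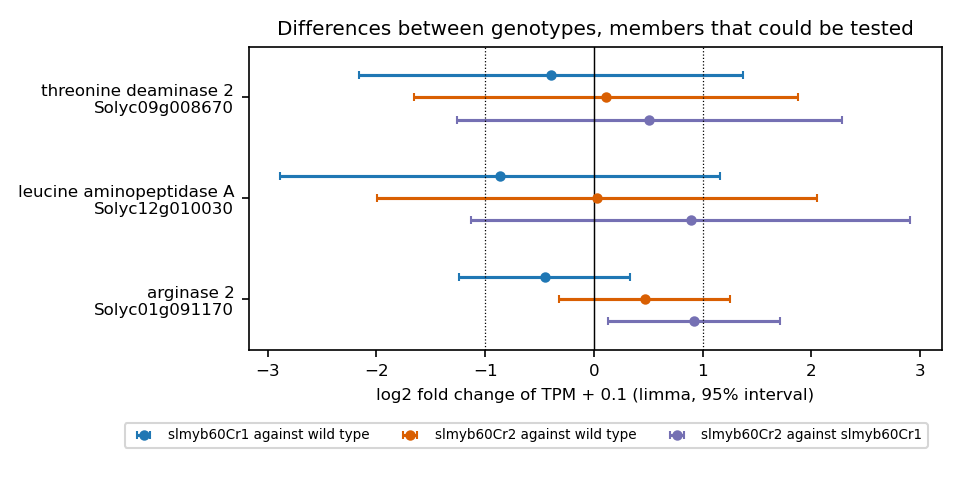
Log2 fold change of TPM + 0.1 (points) with its 95% interval from limma (bars) for the 3 genes above the TPM limit, in each of the 3 comparisons, with dotted lines at −1 and 1. Intervals include 0 except for arginase 2 between the edited lines (0.13 to 1.71), and each interval reaches beyond −1 or 1.

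A gene was called where its adjusted p was under 0.05 and it changed by more than 1 on the log2 scale in either direction. By this rule 0 of the 3 testable genes were called in any comparison by limma. Among all 21218 genes tested, 0.669% were called in *slmyb60Cr1* against the wild type, 1.4% in *slmyb60Cr2* against the wild type and 0.151% between the edited lines, so that 0 calls among 3 genes is near the background. At an unadjusted p below 0.05 in limma, 0 of the 3 genes passed in either line against the wild type and 1, arginase 2, between the lines. Over all genes tested, 17.1% passed this limit in *slmyb60Cr1*, 23.1% in *slmyb60Cr2* and 14.5% between the lines. The comparisons of the lines with the wild type share its 4 libraries. The median log2 fold change of the 3 genes was −0.45 in *slmyb60Cr1* and 0.11 in *slmyb60Cr2*, beside −0.022 and 0.040 over all genes tested. The intervals still allow changes of more than 2-fold in either direction for threonine deaminase 2 and leucine aminopeptidase A, and the test therefore does not show that their levels were alike. With the 12 libraries left out in turn, no gene of the 9 was called.

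For the 3 testable genes, as for the median over all genes tested, more of the spread lay within the genotypes than between them. On the log2(TPM + 0.1) scale, 3.83% of the variance of threonine deaminase 2 lay between genotypes and 48.7% between replicate numbers. For leucine aminopeptidase A these shares were 10.2% and 62.5%, and for arginase 2 they were 38.4% and 9.79%. The medians over all genes tested were 27.0% between genotypes and 28.1% between replicate numbers, so the genotype share was above the median for arginase 2 only. The standard deviation over the 12 libraries was 1.17 for threonine deaminase 2, 1.35 for leucine aminopeptidase A and 0.63 for arginase 2 on that scale, beside a median of 0.21 over all genes tested. The 3 genes did not share one pattern. Across the 12 libraries, Pearson's r was −0.43 between threonine deaminase 2 and leucine aminopeptidase A, 0.27 between threonine deaminase 2 and arginase 2, and 0.20 between leucine aminopeptidase A and arginase 2, given here as descriptions.

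Threonine deaminase 2 followed the summed level of the photosynthesis markers across libraries, a relation that was looked for after its values had been seen. The permutation p values below, adjusted over 3 relations only, do not allow for that choice and are given as descriptions. The share of all genes tested with such a relation is not given here, so it may not be particular to this gene. The summed level of the 8 markers was 14984, 20278, 20625 and 25280 TPM in wild type replicates 1 to 4, 7696, 14354, 24415 and 16323 TPM in *slmyb60Cr1*, and 10197, 11781, 28790 and 20638 TPM in *slmyb60Cr2*. In wild type leaves most of the summed mean, 20291.5 TPM, came from Solyc02g085950, Solyc03g005760 and Solyc03g034220, with means of 9844, 6283 and 3297 TPM. The 3 libraries lowest in the markers, replicate 1 of *slmyb60Cr1* and replicates 1 and 2 of *slmyb60Cr2*, were also among the 4 lowest in threonine deaminase 2. On log2 scales, Pearson's r was 0.74 (permutation p = 0.00602, adjusted 0.0181 over 3 relations, n = 12) and Spearman's rho was 0.74 (permutation p = 0.00799, adjusted 0.0240). Pearson's r was 0.57 without the 2 libraries farthest from the median of the markers, and 0.76 for the deviations from the genotype means. Leucine aminopeptidase A had the opposite sign and did not pass after adjustment, with r = −0.47 (permutation p = 0.129, adjusted 0.193), rho = −0.59 (permutation p = 0.0468, adjusted 0.0702) and r = −0.62 for the deviations from the genotype means. For arginase 2, r was 0.17 (permutation p = 0.612, adjusted 0.612), rho was 0.035 (permutation p = 0.922, adjusted 0.922) and r was 0.12 for those deviations. Groups of 4 libraries are too small for a correlation within each genotype, and whether libraries of the same replicate number are independent is not known.

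**Figure D3:**
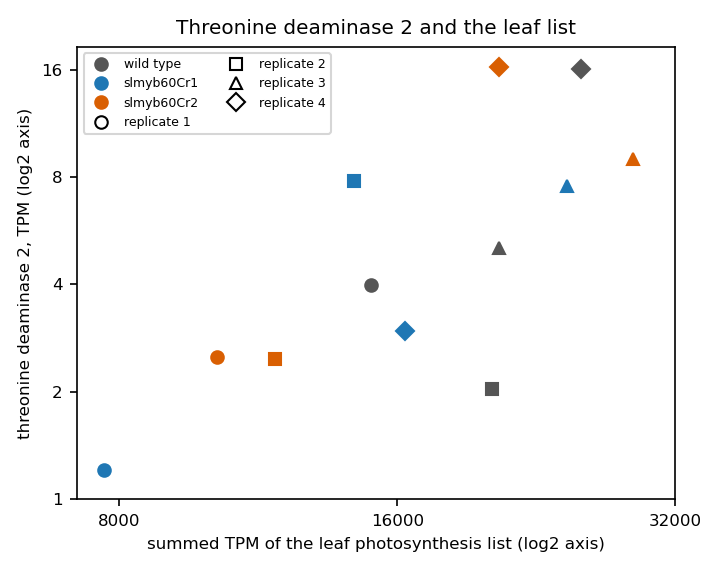
Threonine deaminase 2 (TPM, log2 axis) against the summed TPM of the 8 leaf photosynthesis markers (log2 axis), 1 point per library, with colour for the genotype and marker shape for the replicate number. The point lowest on both axes is *slmyb60Cr1* replicate 1, at 1.20 and 7696 TPM, and the libraries of the 3 genotypes are intermingled.

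A single library, *slmyb60Cr2* replicate 2, stood out for several of the genes. It was the highest of the 12 libraries for 4 of the 9 genes, namely Solyc03g020060, Solyc03g020080, leucine aminopeptidase A and arginase 2, while 12.1% of the genes above 0 TPM had their highest value there. For threonine deaminase 2 and both proteinase inhibitor I loci it was not the highest library. The same library was compared in a further list of 27 identifiers for wound-inducible defence genes, which was put together from general knowledge and for which no single names are given. Of these 27, 22 were in the table, 3 of them listed at 0 in all 12 libraries. With the 9 genes, 28 wound genes were above 0 TPM somewhere. Of these, 9 were highest in *slmyb60Cr2* replicate 2, beside 0 to 7 in each of the other 11 libraries. This count holds the 4 genes that had singled out the library. Of the further list alone, 5 were highest there and 6 were highest in *slmyb60Cr1* replicate 1. In *slmyb60Cr1* replicate 1, 14.4% of the genes above 0 TPM had their highest value.

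A few genes stood far above their other libraries there, which were chosen after their values had been seen. Solyc08g074683 was at 12.2 TPM there and at most 0.104 TPM in the other 11 libraries. Solyc09g089540 was at 8.50 TPM and at most 1.07 TPM elsewhere, and Solyc08g074682 was at 1.08 TPM and at most 0.175 TPM elsewhere. Together with Solyc03g020080, these 3 were 4 of the 15 genes in the whole table that were at 1 TPM or more in *slmyb60Cr2* replicate 2 and over 4 times their next highest library. The other 11 libraries each had between 2 and 12 such genes, and none of those was a wound gene of these lists. Solyc03g020080 was among the values that had singled out this library, so these counts are not an independent check. Solyc08g074682 and Solyc08g074683 have consecutive identifiers, and Salmon can divide reads among similar neighbouring genes. Markers of photosynthesis were low in this library, at a summed 11781 TPM, but not the lowest.

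**Figure D4:**
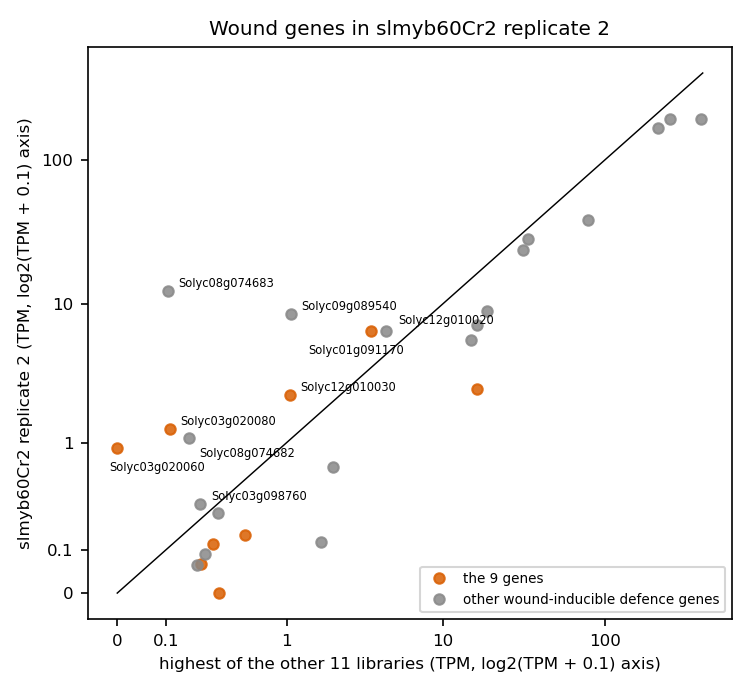
TPM in *slmyb60Cr2* replicate 2 against the highest TPM of the other 11 libraries, both on log2(TPM + 0.1) axes, for the 28 wound genes above 0 TPM in any library, with the 9 genes in orange and the further list in grey. Genes above the diagonal, labelled with their identifiers, were highest in this library, from 0.312 TPM for Solyc03g098760 to 12.2 TPM for Solyc08g074683.

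Of the further list, 11 genes could be tested, and 0 were called in either line by limma. Over all genes tested, 0.669% were called in *slmyb60Cr1* and 1.4% in *slmyb60Cr2*. At an unadjusted p below 0.05, 2 of the 11 passed in *slmyb60Cr1* and 1 in *slmyb60Cr2*, where 17.1% and 23.1% of all genes tested did. Their median log2 fold change was 0.16 in *slmyb60Cr1* and 0.18 in *slmyb60Cr2*, beside −0.022 and 0.040 over all genes tested. Unlike the 9 genes, 6 genes of this list had a mean of 10 TPM or more, and the highest mean was 207 TPM.

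A list of 19 identifiers for jasmonate synthesis and signalling, likewise put together from general knowledge, was expressed at higher levels. Of the 18 in the table, 17 could be tested and 13 had a mean of 10 TPM or more. In *slmyb60Cr1*, 0 were called by limma (0.669% of all genes tested) and 5 had an unadjusted p below 0.05 (17.1% of all genes tested). In this line, 8 of the 17 had a positive log2 fold change, with a median of −0.011. In *slmyb60Cr2*, 1 was called higher, where 1.4% of all genes tested were called in either direction. An unadjusted p below 0.05 was found for 7 (23.1% of all genes tested). Of the 17, 12 had a positive log2 fold change, with a median of 0.14, while 57.4% of all genes tested were positive in this line. Without the limit on the fold, 4 of the 17 were below a limma adjusted p of 0.05 in *slmyb60Cr2* and 0 in *slmyb60Cr1*, beside 7.41% and 1.69% of all genes tested. The gene called, Solyc12g009220, was at 37.2, 28.4, 36.2 and 22.6 TPM in wild type replicates 1 to 4. Every library of either line lay above these values, between 40.7 and 86.5 TPM in *slmyb60Cr1* and between 47.6 and 76.9 TPM in *slmyb60Cr2*. Of the 26889 genes detected, 2387 had no overlap with the wild type in *slmyb60Cr1* and 3657 had none in *slmyb60Cr2*, in either direction. The log2 fold change of Solyc12g009220 was 1.04 in *slmyb60Cr2* (limma adjusted p = 0.0250) and 0.92 in *slmyb60Cr1* (limma adjusted p = 0.0739). The call lay at the threshold and was lost with TMM or median scaling (log2 fold change 1.00 and 0.98) and when any of 5 single libraries was left out, namely replicates 2 and 4 of the wild type and replicates 1, 2 and 4 of *slmyb60Cr2* (limma adjusted p = 0.0721 without *slmyb60Cr2* replicate 2).

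The chromosomal surroundings of the 9 genes were examined through the 72 other loci whose identifier number lies within 100 of one of them. Of these, 9 were listed at 0 in all 12 libraries, 46 could be tested and 29 had a mean of 10 TPM or more. Limma called 1 lower in *slmyb60Cr1*, 2 lower in *slmyb60Cr2* and 0 higher in either. Over all genes tested, 0.669% were called in *slmyb60Cr1* and 1.4% in *slmyb60Cr2*, in either direction. Both called neighbours have identifiers that follow threonine deaminase 2 on chromosome 9. Solyc09g008750 had means of 20.1 ± 7.25 TPM for wild type leaves, 3.75 ± 0.873 for *slmyb60Cr1* and 7.84 ± 1.04 for *slmyb60Cr2* (± SD, n = 4 each). All 8 edited libraries lay below the 4 wild type libraries, with log2 fold changes of −2.35 in *slmyb60Cr1* (limma adjusted p = 0.000478) and −1.29 in *slmyb60Cr2* (limma adjusted p = 0.00927). A lack of overlap with the wild type, in either direction, was found for 2387 of the 26889 detected genes in *slmyb60Cr1* and 3657 in *slmyb60Cr2*. Solyc09g008760 was at 27.8 ± 13.9, 10.9 ± 3.89 and 8.60 ± 2.54 TPM, with log2 fold changes of −1.30 in *slmyb60Cr1* (limma adjusted p = 0.0802) and −1.62 in *slmyb60Cr2* (limma adjusted p = 0.0193), and its call in *slmyb60Cr2* was lost without replicate 4 of that line (limma adjusted p = 0.0556). The study, which used DESeq2, lists Solyc09g008750 and Solyc09g008760 as lower in both edited lines and describes them as VQ motif-containing proteins. Threonine deaminase 2 itself was not called in either line. Next to leucine aminopeptidase A, Solyc12g010040 was at 184 to 252 TPM in every library, and Solyc12g010020 was at 6.48 TPM in *slmyb60Cr2* replicate 2 and between 1.21 and 4.39 TPM elsewhere.

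Genes most like the mean standardised level of the 3 testable genes over the 12 libraries were sought among the 21218 tested by Pearson's r. The 3 genes did not share one pattern and the inhibitor loci are not in the mean. It is therefore not the pattern of the 9 genes. The 4 most alike were Solyc03g122370 (r = 0.93), Solyc04g008370 (r = 0.93), Solyc11g007800 (r = 0.93) and Solyc11g010110 (r = 0.93), all highest in *slmyb60Cr2* replicate 2. Their ranges were narrow, for instance 11.7 to 14.9 TPM for Solyc03g122370, and widest for Solyc04g008370, at 1.03 to 3.73 TPM. With this many genes searched, such values of r are a description only.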

How the data were processed

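Reads had been trimmed by the authors with fastp and quantified with Salmon against ITAG 4.0, correcting for GC and sequence bias. The deposited values are TPM, 1 column for each library. Each of the 12 columns sums to 1000000. Column names were matched to the samples through the labels. Genotypes were compared in limma 3.58.1 (R 4.3.3) on log2(TPM + 0.1) values, allowing the prior variance to follow the mean level, in 1 fit of all libraries with genotype as the only factor. Testing was limited to 21218 genes that reached 0.5 TPM in 4 or more libraries, with the Benjamini-Hochberg adjustment over all of them. Fold changes are on the log2(TPM + 0.1) scale, which understates changes of low genes. Genes below the limit were fitted together with all 26889 genes above 0 TPM. Single genes were also compared by exact permutation tests on TPM. The scripts were tested on simulated data.

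The 9 genes and the further lists were chosen with earlier results of these data known. The text names the 9 genes, the edited gene, neighbouring loci and listed genes that were called, and the 4 genes most like the mean of the 3 testable genes. Exceptions are said to be chosen after their values were seen, or are loci beside the 9. Alternatives covered the replicate block, the libraries in the fit, pseudocount, TPM limit, scaling, trend, library weights, the fold threshold and leaving out each library. Replicates pooled discs of separate plants, per the methods of the study. Sequences of the genes were not analysed here. Figures were drawn with matplotlib 3.10.9.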

Additional observations from a re-analysis of the deposited data

Results flagged for a closer look

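Among the 27 sets of 4 libraries formed by the 9 genes and 3 genotypes, 6 had a library far from the other 3 of its genotype (by Dixon's ratio of the gap to the whole range), in 4 genes. Chance flags about 1 in 20 sets of normally distributed values, but 9.51% of the 80667 such sets of all genes above 0 TPM were flagged in these data, and sets in which all but 1 library are listed at 0 are flagged by any value above 0. The values from *slmyb60Cr2* replicate 2 were 0.912 TPM for Solyc03g020060 and 1.26 TPM for Solyc03g020080, both proteinase inhibitor II loci, with 0 in the other 3 libraries. Solyc03g020080 was also flagged at 0.0498 TPM in *slmyb60Cr1* replicate 4. Solyc03g020030 was flagged at 0.0570 TPM in *slmyb60Cr1* replicate 3 and at 0 TPM in *slmyb60Cr2* replicate 4. The proteinase inhibitor I locus Solyc09g084480 was flagged at 0 TPM in *slmyb60Cr1* replicate 2. Over all genes above 0 TPM, 2.37% were flagged as high in *slmyb60Cr2* replicate 2, and 1.34% to 2.80% in each of the other 11 libraries. Of the 28 wound genes, 8 were flagged as high in *slmyb60Cr2* replicate 2, and 0 to 3 in each of the other 11 libraries. The 8 include the 2 inhibitor loci that had helped to single out this library, so this count is not an independent check.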

How the results depend on the processing

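No gene of the 9 was called under any of the 21 alternative fits, and 0 were at the adjusted p threshold without the fold limit. The lowest limma adjusted p over these fits was 0.165 for the 3 testable genes and 0.0504 for the inhibitor loci. The edited gene stayed called in all of them. The number of all genes called moved more. Against the wild type it was 142 in *slmyb60Cr1*, 88 with only the compared groups, 364 with library quality weights, 358 without the fold limit and 77 to 292 with 1 library left out. In *slmyb60Cr2* it was 298, 197 with a pseudocount of 1, 422 with library quality weights, 1573 without the fold limit and 186 to 355 with 1 library left out. Between the lines it was 32, with 9, 57 and 108 for compared groups only, quality weights and no fold limit, and 7 to 35 with 1 library left out. Of the 32, 18 were higher in *slmyb60Cr2* and 14 lower, but 14 and 17 after TMM scaling and 15 and 17 after median centring.

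Log2 fold changes that changed sign were never called. For threonine deaminase 2 in *slmyb60Cr2* it was −0.43 against the wild type and −0.035 against *slmyb60Cr1* with quality weights. For leucine aminopeptidase A in *slmyb60Cr2* against the wild type it was −0.63 with a pseudocount of 0.01, −0.0098 with TMM scaling and −0.032 with median centring. With 1 library left out, threonine deaminase 2 ranged from −0.83 to 0.15 in *slmyb60Cr1*, from −0.40 to 0.66 in *slmyb60Cr2* and from −0.023 to 0.89 between the lines, and leucine aminopeptidase A in *slmyb60Cr2* from −0.66 to 0.86. The cause was not tested.

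The replicate numbers were checked as a pairing. Of the 12 pairs of same-numbered libraries, 8 had correlated deviations above 0.1 (mean r 0.193, lowest −0.0467), as had 9 of the 36 pairs with different numbers (mean r −0.0641). Of the 12 libraries, 5 correlated best with their own number. A pairing was taken only if every same-numbered pair was above 0.1, so the block was not used in the comparisons above, although deviations were more alike within a number. With the replicate block, limma called 210, 373 and 52 genes in the 3 comparisons and 0 of the 9 genes, and Solyc09g008760 was also called in *slmyb60Cr1* (adjusted p = 0.00972). TPM keeps no depth, and differences among values near 0 were not set against counting error.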
